A study of Mus musculus with 18 samples.

Results

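The 10 immediate early genes Fos, Fosb, Junb, Egr1, Npas4, Nr4a1, Arc, Dusp1, Ier2 and Btg2 were followed in the cerebellum of 3 lines of mice with engineered alleles of Cacna1a, the gene of the pore subunit of the calcium channel Cav2.1. They were chosen by symbol, as every probe set of the array annotated with exactly 1 of these names. All 10 genes were found among the 18193 genes measured, on 11 probe sets. They are 1423100_at (Fos), 1422134_at (Fosb), 1415899_at (Junb), 1417065_at (Egr1), 1459372_at (Npas4), 1416505_at (Nr4a1), 1418687_at (Arc), 1448830_at (Dusp1), 1416442_at (Ier2), and 1416250_at and 1448272_at (Btg2). Every gene is represented by its brightest probe set, which for Btg2 is 1416250_at, unless the second is named. CAG repeat expansion in the human gene causes spinocerebellar ataxia type 6, which the study set out to investigate in the mouse.

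Expression was measured on Affymetrix mouse arrays, 1 array per sample, in 6 groups of 3 mice, 18 arrays in all. The groups were MPI 118Q/118Q knock-in mice, Sca6 CtmKO/CtmKO mice, MPI 11Q/11Q knock-in mice, and a group of wild-type littermates for each line. They are called 118Q, Ctm and 11Q below. All mice carried the C57BL/6 strain label, the mutants of the 118Q and Ctm lines were 6 weeks old, and the age of the 11Q mice and of the wild types is not used here. The labels do not say whether arrays of a group came from separate litters, so p-values measure the spread between these samples. The array medians ran from 2.38 to 2.55 log2 units, and Pearson correlations between arrays from 0.973 to 0.995. The number of genes called over the whole array rested on single arrays. It was 280 in the 118Q line, but 941, 7 and 3 without 118Q knock-in replicate 1, 2 or 3. Without 118Q wild-type replicate 1, 2 or 3 it was 68, 240 and 2. In the Ctm line it was 169, but 7, 24 and 33 without Ctm knockout replicate 1, 2 or 3. Without Ctm wild-type replicate 1, 2 or 3 it was 447, 41 and 1. For the difference between the 118Q and Ctm lines it was 533, and 24 to 1021 with 1 array of either line left out. For Fos, replicate 1 of the Ctm wild types lay apart from the other two, at 4.73 against 7.83 and 7.29. On every array the Purkinje cell genes Pcp2 and Calb1 and the granule cell genes Gabra6 and Neurod1 were above the array median, whereas the forebrain gene Tbr1 was below it on all 18 and the forebrain gene Neurod6 on all but 2. The choroid plexus gene Ttr ranged from 5.30 to 12.1 between arrays. In bulk tissue, fewer cells of a type and less RNA per cell cannot be told apart.

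Immediate early genes are switched on within minutes of a stimulus by factors that are already in the cell, without new protein synthesis. In neurons, calcium entry and MAP kinase signalling act through the factor CREB, which binds the cAMP response element, and through serum response factor, which binds the CArG box. The transcripts are short lived, so their level at dissection can reflect recent activity and handling. Of the genes studied, 6 encode transcription factors: Fos, Fosb and Junb are subunits of AP-1, Egr1 is a zinc finger factor, Npas4 is a factor of neurons that responds to calcium entry, and Nr4a1 is an orphan nuclear receptor. Arc acts at synapses on AMPA receptor removal, Dusp1 is a phosphatase that switches MAP kinases off, Ier2 is a small nuclear protein, and Btg2 is an antiproliferative protein that binds an mRNA deadenylase.

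The sequence before the start of transcription was read from RefSeq (GRCm38.p6) for 7 of the 10 genes. Arc, Egr1 and Ier2 were not among them, so the motif counts below say nothing about these genes. The 250 bases before the start are shown for Fos, Dusp1, Nr4a1 and Npas4, whose levels varied most between animals, and for Fosb, whose correlation with them was low. Each is written 5' to 3' on the strand of the gene, with the core motif of the cAMP response element, TGACG on either strand, in capitals.
Fos (chr12:85473640-85473889, plus strand): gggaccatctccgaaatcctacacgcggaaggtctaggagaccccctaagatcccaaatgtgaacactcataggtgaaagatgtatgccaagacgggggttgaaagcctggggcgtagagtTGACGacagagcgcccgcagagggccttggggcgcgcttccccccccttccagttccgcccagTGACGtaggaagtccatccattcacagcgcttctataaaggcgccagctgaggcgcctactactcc
Dusp1 (chr17:26508473-26508722, minus strand): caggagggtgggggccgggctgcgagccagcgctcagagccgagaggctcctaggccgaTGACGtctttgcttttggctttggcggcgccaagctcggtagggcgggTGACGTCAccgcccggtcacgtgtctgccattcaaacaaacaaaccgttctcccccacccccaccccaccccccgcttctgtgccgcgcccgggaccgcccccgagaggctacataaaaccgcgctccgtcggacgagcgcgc
Nr4a1 (chr15:101266596-101266845, plus strand): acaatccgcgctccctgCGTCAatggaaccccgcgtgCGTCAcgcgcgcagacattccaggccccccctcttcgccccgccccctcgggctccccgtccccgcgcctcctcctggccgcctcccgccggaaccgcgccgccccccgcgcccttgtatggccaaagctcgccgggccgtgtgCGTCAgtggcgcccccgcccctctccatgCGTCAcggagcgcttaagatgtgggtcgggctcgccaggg
Npas4 (chr19:4989972-4990221, minus strand): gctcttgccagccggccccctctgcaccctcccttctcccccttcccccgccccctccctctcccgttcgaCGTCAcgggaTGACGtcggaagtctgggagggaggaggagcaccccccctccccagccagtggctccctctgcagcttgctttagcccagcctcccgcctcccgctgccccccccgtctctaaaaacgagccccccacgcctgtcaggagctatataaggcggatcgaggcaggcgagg
Fosb (chr7:19310046-19310295, minus strand): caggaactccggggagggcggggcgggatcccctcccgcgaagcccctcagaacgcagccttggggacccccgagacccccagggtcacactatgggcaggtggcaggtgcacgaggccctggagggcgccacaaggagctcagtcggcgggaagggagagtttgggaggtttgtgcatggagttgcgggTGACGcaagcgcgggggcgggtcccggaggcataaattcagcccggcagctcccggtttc

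The core motif was in all 7 windows of 300 bases (250 before and 50 after the start), against 20.8% of the 32851 RefSeq windows of that length. Fos held it at positions -129 and -66, counted to the first base of the match from the start base as 0. Nr4a1 held 4 matches, at -233, -213, -69 and -40, Npas4 held 2, at -179 and -169, and Fosb held 1, at -60. Dusp1 held a match at -191 and a pair at -143 and -140 that overlap, because the full palindromic element TGACGTCA reads the same on both strands. The full element was in 2 of the 7 windows, Dusp1 and Btg2, against 1.79% of all windows. The TATA motif TATAAA was in 2 of the 7, Fos and Junb, against 13.6%. The match was at -33 in Fos and at 0, the start base itself, in Junb. No window of the 7 held the AP-1 site TGACTCA (5.20% of all windows), the Egr site GCGTGGGCG (0.612%) or a CArG box (1.63%), all searched on both strands. These matches describe letters in these windows only.

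**Figure D1:**
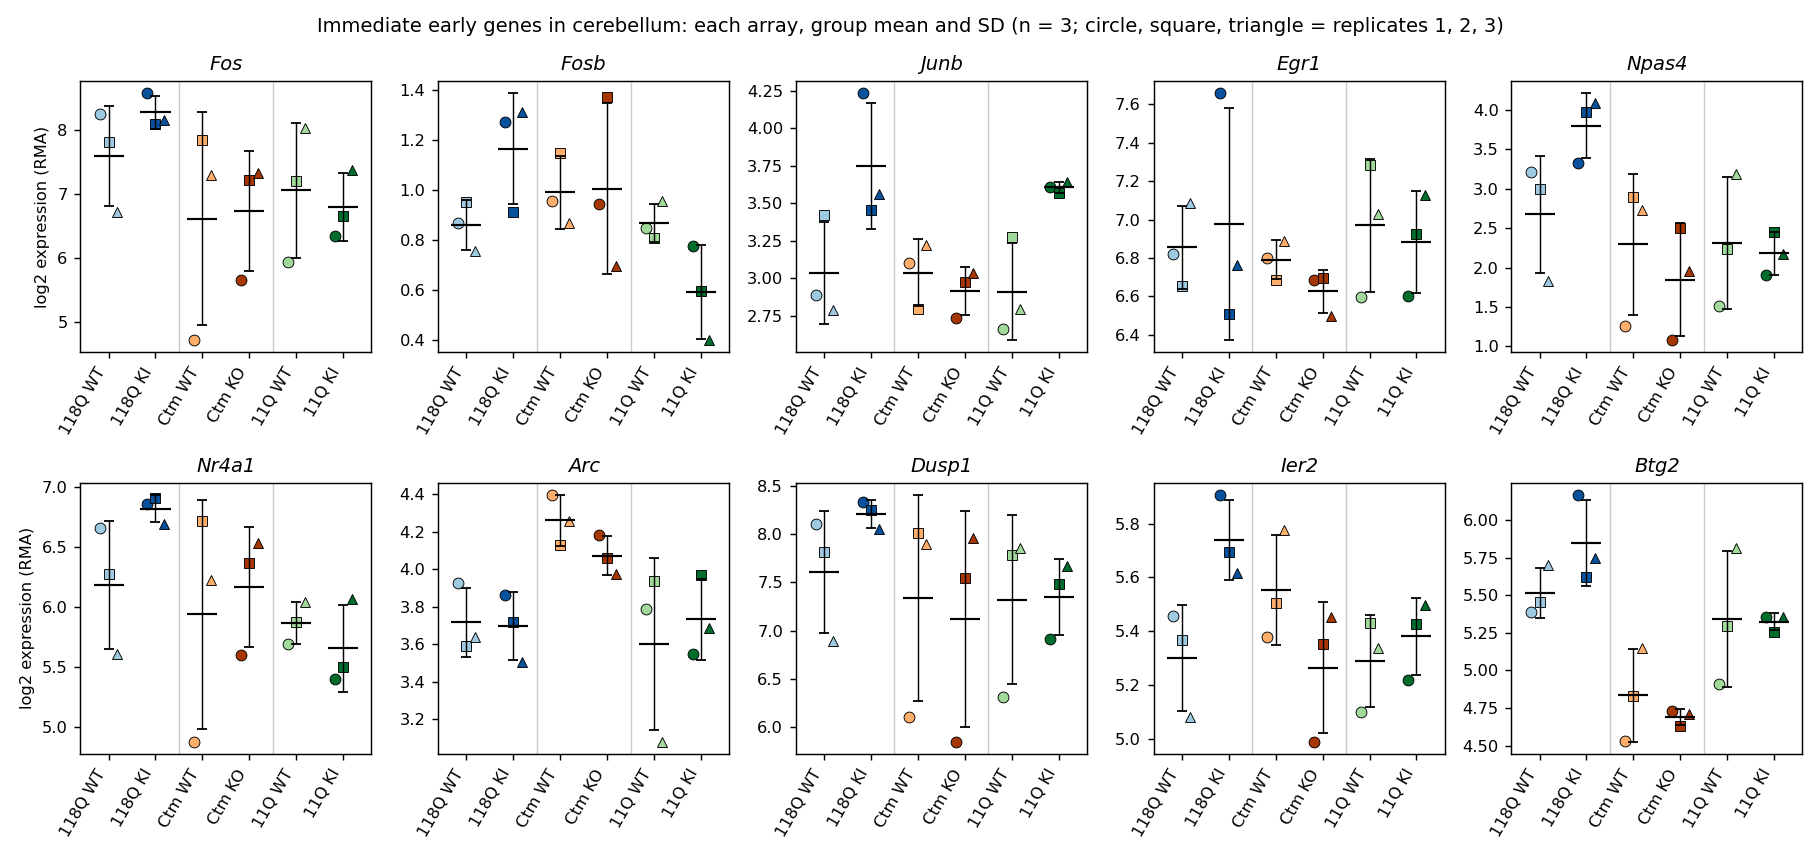
Log2 expression of the 10 genes on each array, with 1 panel per gene, and the mean and SD of each group of 3 (WT, wild type; KI, knock-in; KO, knockout). Circles, squares and triangles are replicates 1, 2 and 3. Each panel has its own scale. Fos ranges from 4.73 to 8.56, and the 4 lowest arrays for Fos are all replicate 1 arrays.

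Fos, Dusp1, Npas4 and Nr4a1 differed most between animals of the same genotype. The Fos values were 8.24, 7.81 and 6.72 in 118Q wild types and 8.56, 8.08 and 8.15 in 118Q knock-ins, in the order of replicates 1, 2 and 3. They were 4.73, 7.83 and 7.29 in Ctm wild types and 5.66, 7.22 and 7.33 in Ctm knockouts. In the 11Q line they were 5.93, 7.19 and 8.03 in wild types and 6.35, 6.66 and 7.37 in knock-ins. The lowest and the highest array differed 14.3-fold, and within the Ctm wild types alone replicate 1 was far below the other two. Genotype groups overlapped in all 3 lines for Fos.

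Dusp1, the phosphatase, spanned 5.85 to 8.33 across the 18 arrays, a 5.58-fold range. Its values were 8.10, 7.82 and 6.90 in 118Q wild types and 8.33, 8.25 and 8.05 in 118Q knock-ins. They were 6.11, 8.01 and 7.89 in Ctm wild types and 5.85, 7.55 and 7.96 in Ctm knockouts. The 11Q wild types were at 6.31, 7.79 and 7.86 and the 11Q knock-ins at 6.91, 7.48 and 7.67. The arrays that were low for Fos were also low for Dusp1, and the groups overlapped in every line.

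Npas4, with a mean of 2.52 over the 18 arrays, near the array medians of 2.38 to 2.55, ranged from 1.08 to 4.10, an 8.09-fold span. It was 3.21, 2.99 and 1.83 in 118Q wild types and 3.33, 3.98 and 4.10 in 118Q knock-ins. The Ctm wild types were at 1.26, 2.90 and 2.73 and the Ctm knockouts at 1.08, 2.51 and 1.95. The 11Q wild types were at 1.52, 2.24 and 3.19 and the 11Q knock-ins at 1.91, 2.45 and 2.17. The 118Q knock-ins lay above their wild types by a gap of less than the spread of either group, and the groups overlapped in the other two lines.

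Nr4a1 ranged from 4.87 to 6.91, a 4.10-fold span. It was 6.66, 6.27 and 5.60 in 118Q wild types and 6.85, 6.91 and 6.69 in 118Q knock-ins, which did not overlap. The Ctm wild types were at 4.87, 6.72 and 6.22 and the knockouts at 5.59, 6.37 and 6.53. The 11Q wild types were at 5.69, 5.87 and 6.04 and the knock-ins at 5.39, 5.50 and 6.06. Both of those lines overlapped.

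The pooled SD between animals of a group, on 12 degrees of freedom, was 0.97 log2 units for Fos, equal to a factor of 1.96. Only 19 of the 18193 genes had a larger one. It was 0.79 for Dusp1 (28 genes larger), 0.69 for Npas4 (54 genes larger) and 0.52 for Nr4a1 (117 genes larger). The median over all genes was 0.165, the 95th percentile 0.309 and the 99th percentile 0.457. Egr1 followed at 0.32, Junb at 0.28, Btg2 at 0.26, Arc at 0.24, Fosb at 0.20 and Ier2 at 0.19, so that all 10 genes lay above the median of all genes, 5 above the 95th percentile and 4 above the 99th. The SD of Fos ranged from 0.74 to 1.02 when each array was left out in turn.

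**Figure D2:**
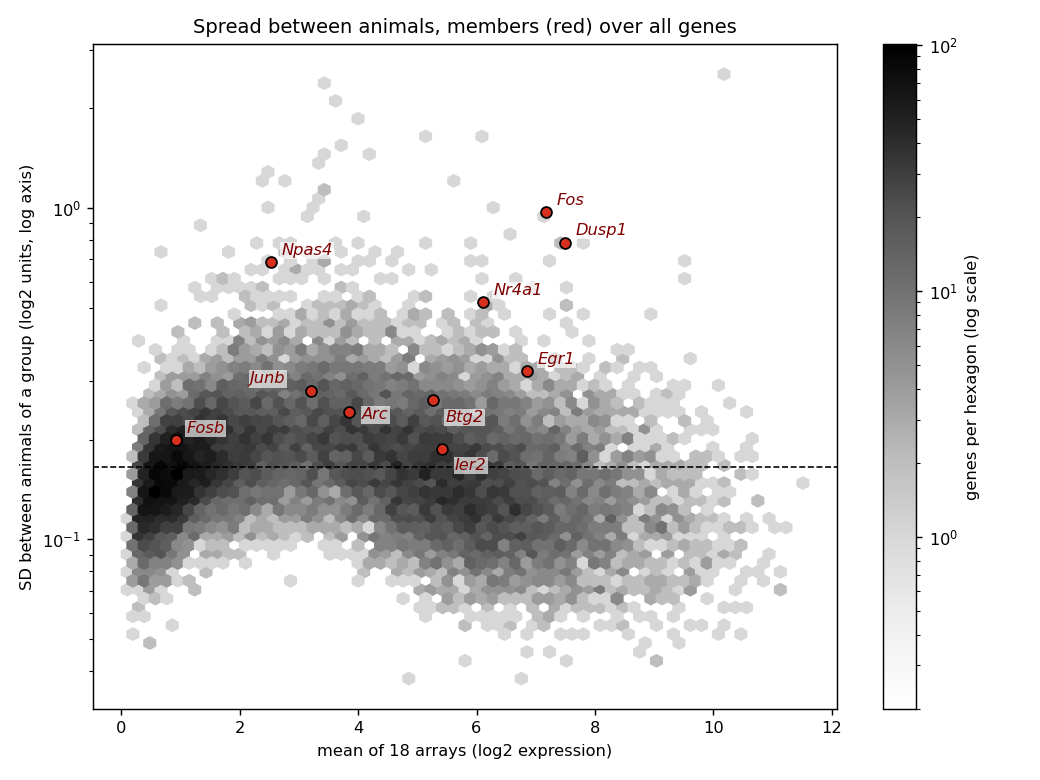
Pooled SD between animals of the same group (vertical axis, log2 units, log scale) against the mean of the 18 arrays (horizontal axis, log2 expression) for all 18193 genes, in hexagons shaded by the number of genes on a log scale, with the 10 genes in red and the median SD as a dashed line. Fos, Dusp1, Npas4 and Nr4a1 lie above the bulk of genes, among a scatter of others that includes the 19 genes above Fos, and the other 6 lie closer to the median of 0.165.

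Replicate 1 held the lowest Fos value in 4 of the 6 groups, and likewise the lowest Dusp1, Nr4a1 and Ier2 values in 4 groups and the lowest Npas4 value in 5. For the other 5 genes it was less: 3 groups for Btg2, 2 for Junb and for Egr1, 1 for Arc and 0 for Fosb. These counts were not tested. The exceptions for Fos were the 118Q line, where replicate 3 was lowest among wild types and replicate 2 among knock-ins. The labels do not say whether a replicate number marks a shared day or batch. Over all genes, deviations from the group mean of same-numbered mutant and wild-type samples of a line correlated at -0.20 to 0.23. Samples of different lines were not compared in this way.

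To ask which of the genes were high and low on the same arrays, each value was taken as its deviation from the mean of its group. All 45 pairs of genes were tested by exact permutation within groups (46656 permutations) and adjusted over the 45 pairs by Benjamini-Hochberg. By Pearson correlation 8 pairs passed, all of them among Fos, Dusp1, Nr4a1, Npas4 and Ier2, a set singled out after the values were seen. By Spearman correlation 10 pairs passed. Fos and Dusp1 gave r = 0.945 (exact p = 4.29e-05, adjusted p = 0.000965) and rho = 0.932 (exact p = 6.43e-05, adjusted p = 0.00145), and r was 0.905 without the 2 arrays farthest from the median. Their deviations had the same sign on 16 of the 18 arrays. Fos and Nr4a1 gave r = 0.933 (exact p = 0.000150, adjusted p = 0.00225) and rho = 0.915 (exact p = 0.000257, adjusted p = 0.00386), with r = 0.944 without the 2 farthest arrays.

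Fos and Npas4 gave r = 0.867 (exact p = 0.00362, adjusted p = 0.0275) and rho = 0.806 (exact p = 0.00639, adjusted p = 0.0411), with r = 0.748 without the 2 farthest arrays. Npas4 and Nr4a1 gave r = 0.785 (exact p = 0.00493, adjusted p = 0.0317) and rho = 0.752 (exact p = 0.00604, adjusted p = 0.0411), but r dropped to 0.554 without the 2 farthest arrays, 1 of them a 118Q wild type and 1 a Ctm wild type. Dusp1 and Ier2 gave r = 0.865 (exact p = 0.000386, adjusted p = 0.00434) and rho = 0.783 (exact p = 0.00180, adjusted p = 0.0203), with r = 0.805 without the 2 farthest. The other 3 pairs that passed were Nr4a1 with Dusp1 (r = 0.876, rho = 0.878, and r = 0.853 without the 2 farthest), Npas4 with Dusp1 (r = 0.847, rho = 0.744, and r = 0.740) and Fos with Ier2 (r = 0.759, rho = 0.728, and r = 0.734). By rank alone 2 more pairs passed, Nr4a1 with Ier2 (rho = 0.715, adjusted exact p = 0.0456) and Junb with Ier2 (rho = 0.680, adjusted exact p = 0.0476).

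The AP-1 partners of Fos did not pass. Fos gave r = 0.204 with Junb (adjusted exact p = 0.698) and r = 0.138 with Fosb (adjusted exact p = 0.819). Egr1 gave r = 0.167 with Fos (adjusted exact p = 0.692), and Arc gave r = -0.354 (adjusted exact p = 0.552). Egr1 and Btg2 gave r = 0.588 (adjusted exact p = 0.244). On array 1 of the 118Q knock-ins Egr1 was at 7.66 against 6.51 and 6.76 on the other two, and Junb at 4.23 against 3.46 and 3.56.

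**Figure D3:**
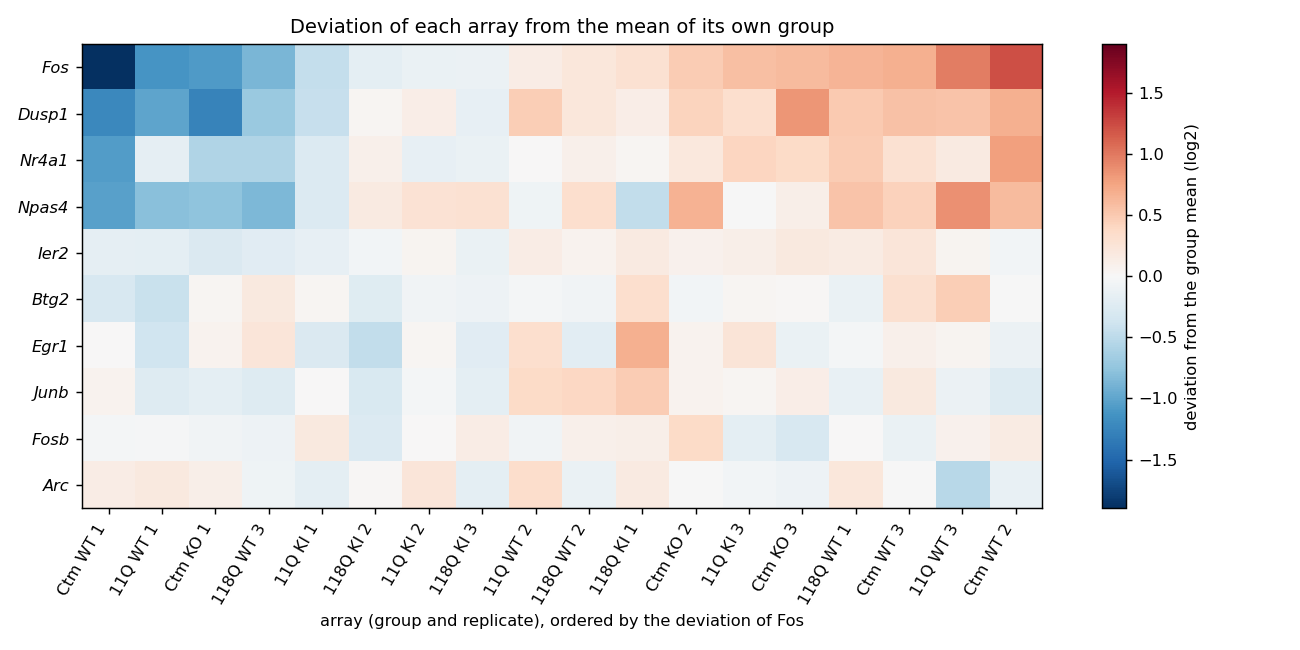
Deviation of each array from the mean of its own group, in log2 units, for the 10 genes (rows), with the 18 arrays (columns) ordered by the deviation of Fos; blue is below the group mean and red above it. Dusp1, Nr4a1 and Npas4 follow the order of Fos, and Junb, Fosb and Arc do not.

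Fos was also compared with 18 measures of the arrays: the RNA quality measure, the mean levels of the glucocorticoid and cell marker lists, and 5 named stress genes. None passed after adjustment over the 18. The RNA quality measure was the signal of the 3' control probe sets of Gapdh and beta-actin minus that of their 5' ones, and is higher in more degraded RNA. It gave r = -0.639 with Fos (exact permutation p = 0.0292, adjusted p = 0.253), rho = -0.664 (exact p = 0.0211, adjusted p = 0.277) and r = -0.738 without the 2 farthest arrays. Sgk1, a kinase gene driven by glucocorticoids, gave r = 0.730 (exact p = 0.0260, adjusted p = 0.253) and rho = 0.664 (adjusted exact p = 0.277). The clock gene Per1, which glucocorticoids and calcium signals both induce, gave r = 0.688 (exact p = 0.0421, adjusted p = 0.253) and rho = 0.490 (adjusted exact p = 0.636). Their part in the spread of Fos was not tested.

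**Figure D4:**
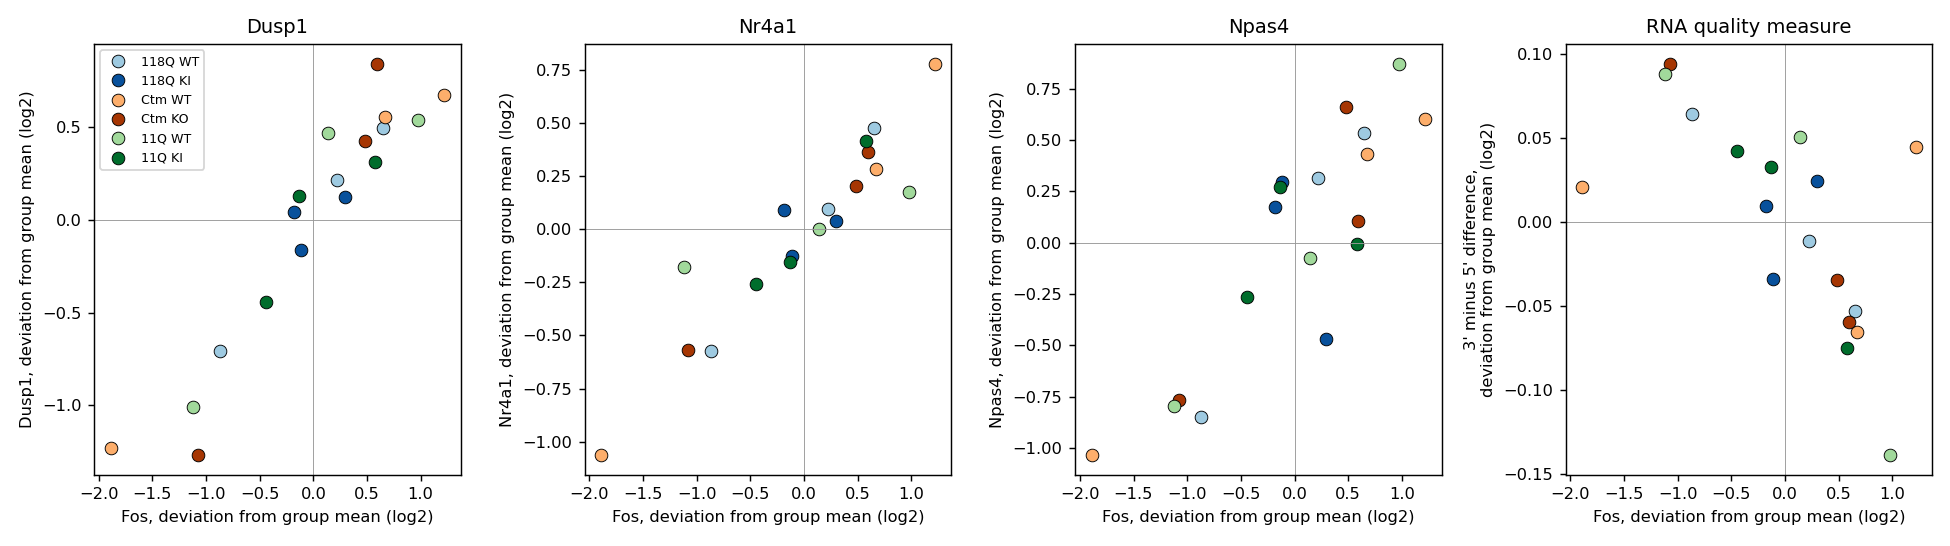
Deviations from the group mean of Dusp1, Nr4a1, Npas4 and the RNA quality measure (vertical axes, log2 units) against that of Fos (horizontal axis, log2 units), with 1 point per array and 1 colour per group. The correlations are 0.945, 0.933, 0.867 and -0.639.

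In the 118Q line 9 of the 10 genes were higher in knock-ins than in their wild-type littermates, with a median log2 change of 0.52 against 0.04 over all genes. At an adjusted p below 0.05 in limma, over all 18193 genes, 0 of the 10 were called, where 1.54% of all genes were. An unadjusted p below 0.05 in the higher direction was reached by 3 of the 10, Junb, Ier2 and Npas4, against 10.5% of all genes, and in the lower direction by 0, against 5.69%. All 3 knock-ins lay above all 3 wild types for 4 of the 10, Junb, Ier2, Npas4 and Nr4a1, and for none the reverse; the groups did not overlap, in either direction, for 18.1% of all genes. A change above 0 was found for 58.7% of all genes. The 10 genes are not independent of each other, since several moved together between animals.

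Junb was 2.89, 3.42 and 2.79 in 118Q wild types and 4.23, 3.46 and 3.56 in knock-ins. The groups did not overlap, though the lowest knock-in and the highest wild type were close. The log2 change was 0.72 (SE 0.20, 95% interval 0.29 to 1.14), a 1.64-fold difference, with an unadjusted p of 0.00225 and an adjusted p of 0.0780 in limma. Over the alternatives tried the adjusted p ranged from 0.0114 to 0.275, and without 118Q wild-type replicate 2 it was 0.0401.

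Ier2 was 5.46, 5.37 and 5.08 in 118Q wild types and 5.91, 5.69 and 5.62 in knock-ins, with no overlap. Its log2 change was 0.44 (SE 0.15, 95% interval 0.13 to 0.74), with an unadjusted p of 0.00770 and an adjusted p of 0.133 in limma, which ranged from 0.0363 to 0.416 over the alternatives. Npas4, with the values given above, had the largest log2 change of the 10, 1.12 (SE 0.46, 95% interval 0.15 to 2.10), or 2.18-fold. Its unadjusted p was 0.0262 and its adjusted p 0.234 in limma, ranging from 0.0507 to 0.610.

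With each of the 6 arrays of the line left out in turn, the change of Npas4 was 0.70 to 1.39, with the lowest value without wild-type replicate 3. That of Junb was 0.48 to 0.91 and that of Ier2 0.33 to 0.52.

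The remaining genes did not reach an unadjusted p below 0.05 in the 118Q line. The log2 change was 0.68 for Fos (SE 0.65, 95% interval -0.70 to 2.05), 0.64 for Nr4a1 (SE 0.35) and 0.61 for Dusp1 (SE 0.53). It was 0.33 for Btg2 (SE 0.19) and 0.31 for Fosb (SE 0.15). Without 118Q wild-type replicate 3, which was low for these genes, Fos was 0.24, Dusp1 0.25 and Nr4a1 0.35, and without 118Q knock-in replicate 1 Btg2 was 0.17. The highest values with 1 array left out were 1.003 for Fos, 0.85 for Dusp1, 0.88 for Nr4a1 and 0.44 for Btg2. The second Btg2 probe set, 1448272_at, gave 0.36 (SE 0.19), with the knock-ins all above the wild types. Egr1 gave 0.12 (SE 0.23) and Arc -0.02 (SE 0.18, 95% interval -0.40 to 0.35). The Fosb probe set was below the array median throughout, at 0.40 to 1.37 across the 18 arrays, where the zero point of the deposited values is not stated.

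**Figure D5:**
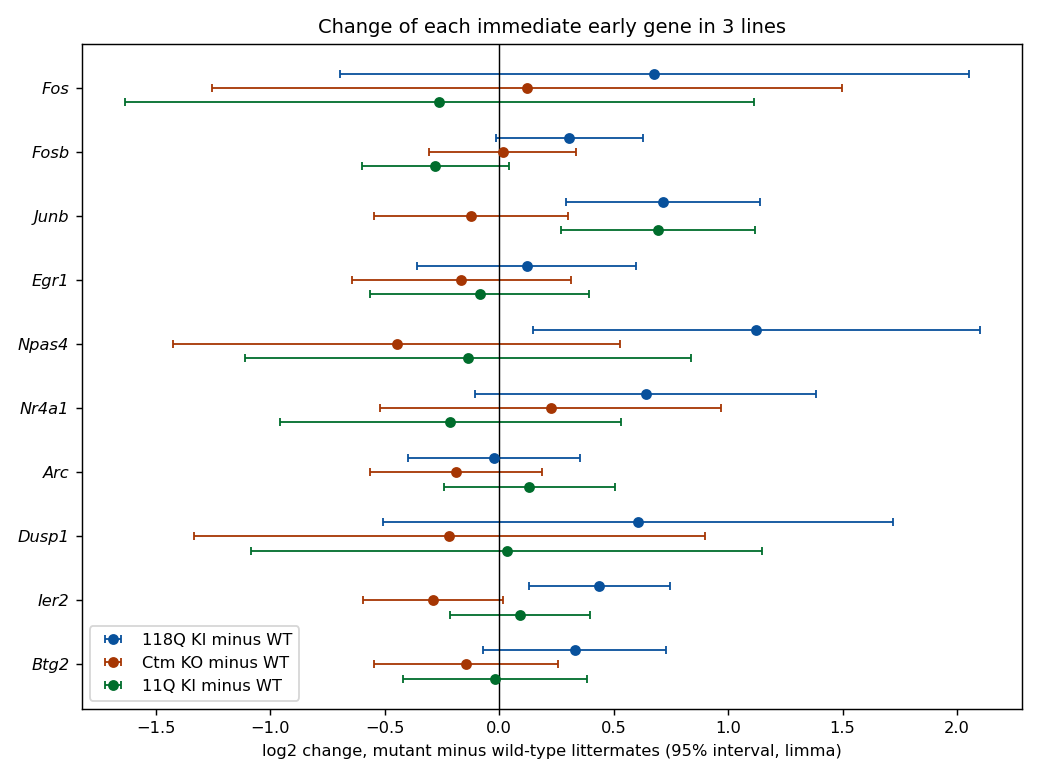
Log2 change of each gene, mutant minus wild-type littermates, in the 118Q, Ctm and 11Q lines, with 95% intervals from limma (3 arrays a group). The interval excludes 0 for Junb, Npas4 and Ier2 in the 118Q line and for Junb in the 11Q line; no change passes the adjusted test.

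The RNA quality measure did not overlap between these groups. The 3' minus 5' measure was 0.50, 0.54 and 0.61 in 118Q wild types and 0.47, 0.46 and 0.41 in 118Q knock-ins. With that measure as a covariate the change of Fos was -0.15 in place of 0.68 and that of Dusp1 -0.08 in place of 0.61, both with the sign turned. It was 0.49 for Npas4, 0.29 for Nr4a1, 0.28 for Ier2 and 0.18 for Btg2, all smaller than without it, and 0.66 for Junb, 0.32 for Fosb, 0.10 for Egr1 and 0.15 for Arc. No gene of the 10 was called with the covariate. Over all genes 37 were called in the 118Q line with it, against 280 without it. The part of RNA quality in the changes was not tested beyond this fit.

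Genes of the glucocorticoid and handling response were also higher in this comparison, without passing the test. All 14 of the 14 listed were above 0 in 118Q knock-ins, against 58.7% of all genes, with a median change of 0.62 against 0.04. None of the 14 was called, where 1.54% of all genes were. At an unadjusted p below 0.05 in limma 8 were higher and 0 lower, against 10.5% and 5.69% of all genes. For 6 of the 14 all knock-ins lay above all wild types, and for 0 below. Over all genes 18.1% did not overlap in either direction. The mean level of the list was 5.25 to 5.63 in 118Q wild types and 5.73 to 6.14 in knock-ins. Mt1, a metallothionein, gave 0.65 (SE 0.19, adjusted p = 0.0923 in limma), Fkbp5, a chaperone of the glucocorticoid receptor, gave 0.75 (SE 0.33, adjusted p = 0.261), and Per1 gave 0.72 (SE 0.29, adjusted p = 0.220). Sgk1 gave 0.34 (SE 0.40) and Tsc22d3, which encodes a glucocorticoid-induced zipper protein, 0.26 (SE 0.19). Some cell type markers were called at an adjusted p below 0.05 in limma, where 1.54% of all genes were. Of them, 3 of the 4 measured Purkinje cell markers, 1 of the 5 interneuron markers and 2 of the 6 endothelial markers fell. In the other direction 2 of the 6 microglia markers rose. None was called of the 5 granule cell, 5 Bergmann glia and astrocyte, 4 oligodendrocyte and 7 choroid plexus markers. The mean level of the Purkinje list was 9.87 to 9.94 in wild types and 9.02 to 9.68 in knock-ins. That of the granule cell list was 9.46 to 9.49 and 9.46 to 9.51. Their part in the results on the 10 genes was not tested.

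Both Junb and Ier2 lie on chromosome 8 with Cacna1a, the gene altered in all 3 lines, while the other 8 genes lie on other chromosomes. By the order of RefSeq, Ier2 is the protein-coding gene next to Cacna1a, with 0 between them, and 18 protein-coding genes lie between Junb and Cacna1a. Of the 16 measured genes between Cacna1a and Junb apart from Ier2, 0 were called in the 118Q line, where 12 were above 0 and 5 had an unadjusted p below 0.05, 4 of them higher. Over all genes the shares in that line were 1.54% called, 58.7% above 0, and 10.5% higher and 5.69% lower at that unadjusted p. In the 11Q line 0 were called, against 0.00% of all genes, and 8 were above 0, against 45.7%. There 6 had an unadjusted p below 0.05, only 1 of them higher. Over all genes that share was 5.49%, with 2.27% higher and 3.22% lower. In the Ctm line 2 of the 16 were called, against 0.929% of all genes, and 4 had an unadjusted p below 0.05, all lower, against 7.29% lower and 4.72% higher. This set was chosen after the values of Junb and Ier2 were seen, and the part of chromosomal position in their values was not tested.

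In the Ctm line 3 of the 10 genes were higher in knockouts, with a median change of -0.15 against -0.06 over all genes, where 35.6% of genes were above 0. No gene of the 10 was called in limma, where 0.929% of all genes were, and 0 of the 10 reached an unadjusted p below 0.05, against 4.72% of all genes in the higher and 7.29% in the lower direction. Knockouts and wild types overlapped for all 10, whereas they did not for 21.3% of all genes. The smallest unadjusted p was that of Ier2, with knockouts at 4.99, 5.35 and 5.45 and wild types at 5.38, 5.50 and 5.78. Its change was -0.29 (SE 0.15, 95% interval -0.59 to 0.02), with an unadjusted p of 0.0642 and an adjusted p of 0.452. Npas4 gave -0.45 (SE 0.46), Dusp1 -0.22 (SE 0.53), Arc -0.19 (SE 0.18), Egr1 -0.16 (SE 0.23), Btg2 -0.15 (SE 0.19) and Junb -0.12 (SE 0.20). Nr4a1 gave 0.23 (SE 0.35), Fos 0.12 (SE 0.65) and Fosb 0.01 (SE 0.15). Without Ctm wild-type replicates 2 and 3, so against replicate 1 alone, Fos gave 2.01, Nr4a1 1.29 and Dusp1 1.01, values given without a test because 1 array was left in that group. Without wild-type replicate 1 Fos gave -0.82, and its sign also turned without knockout replicate 2 or 3 (-0.12 and -0.18), so the direction of Fos in this line rests on single arrays.

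In the 11Q line 4 of the 10 genes were higher in knock-ins, with a median change of -0.05 against -0.02 over all genes, where 45.7% were above 0. No gene of the 10 was called in limma, and none of the 18193 was (0.00%), although 998 of them (5.49%) had an unadjusted p below 0.05, 2.27% of all genes in the higher and 3.22% in the lower direction. Of the 10, only Junb had one. Junb was 2.67, 3.28 and 2.79 in 11Q wild types and 3.61, 3.57 and 3.64 in knock-ins, with no overlap. Junb and Fosb were the 2 of the 10 whose groups did not overlap, against 10.3% of all genes. The change of Junb was 0.70 (SE 0.20, 95% interval 0.27 to 1.12), with an unadjusted p of 0.00284 and an adjusted p of 0.756 in limma. Fosb was lower on all 3 knock-in arrays, at 0.78, 0.60 and 0.40 against 0.85, 0.81 and 0.96, with a change of -0.28 (SE 0.15, adjusted p = 0.876). The other 8 genes lay between -0.26 for Fos (SE 0.65) and 0.13 for Arc (SE 0.18).

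Differences between the lines were tested as interactions in the same limma fit. No gene of the 10 passed for 118Q minus Ctm (2.93% of all genes did), for 118Q minus 11Q (0.00%) or for Ctm minus 11Q (0.00%). An unadjusted p below 0.05 was reached for 118Q minus Ctm by 3 of the 10, all higher (13.2% of all genes higher and 5.79% lower). It was reached for 118Q minus 11Q by 1, higher (7.36% and 2.97%, together 1880 genes or 10.3%), and for Ctm minus 11Q by 1, lower (4.39% and 4.09%, together 1543 genes or 8.48%). For 118Q minus Ctm all 10 differences were above 0, as were 63.0% of all genes. Ier2 had the smallest p of them, with a difference of 0.73 (SE 0.21, unadjusted p = 0.00248, adjusted p = 0.0634). Junb gave 0.84 (SE 0.28, unadjusted p = 0.00867, adjusted p = 0.112) and Npas4 1.57 (SE 0.66, unadjusted p = 0.0277, adjusted p = 0.193). For 118Q minus 11Q, where 9 of the 10 were above 0 against 58.0% of all genes, Fosb gave 0.59 (SE 0.22, unadjusted p = 0.0142, adjusted p = 0.357). For Ctm minus 11Q, where 3 of the 10 were above 0 against 41.6%, Junb gave -0.82 (SE 0.28, unadjusted p = 0.0102, adjusted p = 0.367). The differences share groups with each other. The adjusted p of Ier2 for 118Q minus Ctm ranged from 0.0317 to 0.360 over the alternatives, and without Ctm wild-type replicate 1 it was 0.0434.

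The controls of the 3 lines were compared with each other by limma's F test, which 9.78% of all genes passed. Of the 10 genes, 1 passed, so the share was near that background. It was Arc (adjusted p = 0.0412 in limma), at 4.40, 4.13 and 4.26 in Ctm wild types, 3.93, 3.59 and 3.64 in 118Q wild types, and 3.79, 3.94 and 3.08 in 11Q wild types. The Ctm wild types were all above the other wild types, and the Ctm knockouts were at 4.18, 4.06 and 3.98. Btg2, at 4.53, 4.83 and 5.15 in Ctm wild types against 5.39, 5.45 and 5.70 and 4.91, 5.30 and 5.81 in 118Q and 11Q wild types, gave an adjusted p of 0.0570. The second Btg2 probe set did not show this order, at 4.35, 4.77 and 5.19 in Ctm wild types against 4.73, 4.74 and 4.58 in 118Q and 4.22, 4.71 and 4.42 in 11Q wild types. With the mean of both probe sets the adjusted p of Btg2 was 0.475. The call for Arc was lost without any 1 of the 3 Ctm wild types and without 118Q wild-type replicate 2 or 3, with adjusted p from 0.0574 to 0.164. The Arc changes within a line were -0.02, -0.19 and 0.13 in the 118Q, Ctm and 11Q lines, and none was called.

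Other immediate early genes were read from a list of 56, of which 52 were measured. In the 118Q line 0 of the 52 were called (1.54% of all genes were), 36 were above 0 (58.7% of all genes) and the median change was 0.08. An unadjusted p below 0.05 was reached by 6 of them, all higher, a share near the 10.5% of all genes that were higher at that p. The 4 with the smallest p were Gadd45b, a growth arrest and stress gene (0.51, SE 0.13, adjusted p = 0.0606 in limma), the nuclear protein gene Csrnp1 (0.54, SE 0.15, adjusted p = 0.0801), Per1 and the stress factor Atf3 (0.48, SE 0.20, adjusted p = 0.236). In the Ctm line 0 of the 52 were called and 14 were above 0 (35.6% of all genes), with Cebpb (-0.53, SE 0.15), Ier5l (-0.36, SE 0.12), Gadd45b (-0.34, SE 0.13) and Maff (-0.25, SE 0.11) having the smallest p. In the 11Q line 0 were called and 18 were above 0 (45.7% of all genes), led by Jund (0.39, SE 0.16), Klf10 (-0.44, SE 0.18), Egr2 (-0.26, SE 0.12) and Cebpb (-0.32, SE 0.15). Of the list 1 gene, Gadd45b, passed the difference between the 118Q and Ctm lines (0.85, SE 0.19, adjusted p = 0.0280), with adjusted p from 0.0102 to 0.121 over the alternatives. That is 1 of 52 genes, no more than the 2.93% of all genes that passed this difference.

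Genes that follow activity later, such as neuropeptides and secreted factors, were a list of 27 with 26 measured. In no line was one called, where 1.54%, 0.929% and 0.00% of all genes were in the 118Q, Ctm and 11Q lines. In the 118Q line 14 of 26 were above 0, against 58.7% of all genes, with a median change of 0.04. At an unadjusted p below 0.05 in limma 5 were lower and 3 higher, against 5.69% and 10.5% of all genes. With 1 array left out 0 to 2 were called, against 2 to 941 of all genes. The smallest p were those of the enkephalin gene Penk (-0.59, SE 0.18, adjusted p = 0.111), Nptx1 (-0.48, SE 0.16), Pcdh8 (-0.59, SE 0.20) and Sorcs3 (-0.33, SE 0.12). In the Ctm line they were those of Vgf (-0.43, SE 0.21), Pdyn (0.22, SE 0.14), Pcsk1 (-0.22, SE 0.18) and Gpr3 (-0.18, SE 0.15). In the 11Q line they were those of Npy (0.54, SE 0.24), Rgs4 (-0.48, SE 0.23), Slc2a1 (-0.35, SE 0.17) and Plat (-0.29, SE 0.14). Of 36 upstream regulators 29 were measured, and 0 were called in any line, against the same shares of all genes. At an unadjusted p below 0.05 in limma 7 of the 29 were lower and 2 higher in the 118Q line. Over all genes these shares were 5.69% and 10.5%. With 1 array of that line left out 0 to 4 were called, against 2 to 941 of all genes. The smallest p in the 118Q line were those of the transcription factor gene Mef2c (-0.51, SE 0.13, adjusted p = 0.0574) and the MAP kinase kinase gene Map2k1 (-0.36, SE 0.09, adjusted p = 0.0592). In the Ctm line they were those of Nfatc2 (-0.35, SE 0.13) and Elk3 (-0.36, SE 0.15), and in the 11Q line those of Crtc2 (0.35, SE 0.17) and Hdac4 (0.33, SE 0.16).

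Among 9091 genes in the brighter 50% by mean level, the 10 whose deviations from the group mean were most like the mean deviation of the 10 genes over the 18 arrays were named. They were Plekhf1 (r = 0.882), Utp4 (0.877), Ing3 (0.860), Ddit4 (0.851), Siah2 (0.849), Klf2 (0.849), Coro2b (0.842), Cdc42se1 (0.836), Spty2d1 (0.832) and Atg101 (0.799). Klf2 is a zinc finger transcription factor of the early gene list, Ddit4 an inhibitor of mTORC1 and Siah2 a ubiquitin ligase. Klf2 was the only one on the list of other immediate early genes, of which 30 were in the ranked genes and 6 within the top 100. Klf2 was 3.19 on the Ctm wild-type array where Fos was lowest, against 4.60 and 4.18 on the other two. These correlations share arrays and are a description, with no p.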

How the data were processed

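Affymetrix arrays of mouse cerebellum, 18 in 6 groups of 3, were read from the deposited value table. Its values are log2 expression that the authors made with RMA, per the submitters' processing notes; its version, the zero point, the genome build and annotation version are not given in the sources used here. The highest and lowest values were 12.2 and -0.26. Of 45101 probe sets, 34945 had exactly 1 symbol, and the probe set with the highest mean stood for each of 18193 genes.

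One model with a mean per group was fitted over all arrays in limma 3.58.1 (R 4.3.3), with 12 residual degrees of freedom, Benjamini-Hochberg adjustment over all genes and a threshold of 0.05; p-values are two-sided. Genes were called on adjusted p. Correlations used deviations from the group mean and exact two-sided permutation within groups, with 2.14e-05 as the smallest possible p. Both steps were tested on simulated data. Array number limits the precision.

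The 10 genes and the lists were chosen with earlier results of these data known. All 10 were named; of the lists of other early and of later genes the 4 with the smallest p per line, of upstream regulators 2, of the glucocorticoid list 5 fixed genes, and by likeness 10. The alternatives for list genes and for the wild-type comparison, and leaving out Ctm wild-type replicates 2 and 3, were chosen after seeing the data. Over all genes, deviations of same-numbered mutant and wild-type samples of a line correlated at -0.20 to 0.23, so the model held no block. Samples of different lines were not compared in this way.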

Additional observations from a re-analysis of the deposited data

Results flagged for a closer look

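Gadd45b, a growth arrest and stress gene on the list of other immediate early genes, differed between the 118Q and Ctm lines in its change from wild type, by 0.85 log2 units (SE 0.19, adjusted p = 0.0280 in limma). Of the 52 measured genes of that list 1 passed, against 2.93% of all genes. It was 5.30, 5.03 and 4.74 in 118Q wild types and 5.74, 5.43 and 5.42 in 118Q knock-ins. It was 5.27, 4.94 and 5.05 in Ctm wild types and 4.70, 4.82 and 4.73 in Ctm knockouts. Neither change passed by itself. The difference lost its call with the RNA quality covariate (0.77, adjusted p = 0.0790), without both Ctm wild-type replicates 2 and 3 (1.03, adjusted p = 0.121, with 1 array left in that group and assumed to vary like the others), and without 118Q wild-type replicate 3, 118Q knock-in replicate 3, Ctm wild-type replicate 3 or any 1 Ctm knockout (adjusted p above 0.05 in each). Groups of 3 arrays were too small for a test of single outlying samples.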

How the results depend on the processing

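Directions turned mainly for changes with wide intervals. With RNA quality as a covariate the log2 change of Fos was -0.15 in the 118Q and 0.019 in the 11Q line, that of Dusp1 -0.078 and of Arc 0.15 in the 118Q line, and that of Npas4 0.078 and of Btg2 0.034 in the 11Q line; Fos was -0.31 for 118Q minus Ctm, and for 118Q minus 11Q Fos was -0.17, Junb -0.051, Arc 0.082 and Dusp1 -0.34. Array weights gave Fos -0.20 in the Ctm line, 0.14 in the 11Q line and -0.33 for Ctm minus 11Q, Junb -0.25 for 118Q minus 11Q, and in the 11Q line Egr1 0.011, Npas4 0.29 and Btg2 0.14. With the 6 wild types of the 118Q and 11Q lines as controls, Fos was -0.58 and Arc 0.41 in the Ctm line, Arc 0.037 in the 118Q line, and Vgf 0.021 and Gpr3 0.20 in the Ctm line. Renewed quantile normalisation gave Junb -0.015 for 118Q minus 11Q and Btg2 0.012 in the 11Q line, the mean of probe sets likewise Btg2 0.012 there, and a choroid plexus covariate Fosb -0.011 in the Ctm line and Egr1 0.013 in the 11Q line. Without Ctm wild-type replicates 2 and 3, Npas4 was 0.59, Dusp1 1.01 and Btg2 0.16 in the Ctm line; Fos -1.33, Nr4a1 -0.65 and Dusp1 -0.41 for 118Q minus Ctm; and Npas4 0.72, Dusp1 0.98 and Btg2 0.18 for Ctm minus 11Q. The causes were not tested.

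Against those 6 wild types, 2 of the 10 genes were called in the 118Q line (Junb, adjusted p = 0.0114, and Ier2, 0.0363, in limma). In the Ctm line 1 was called (Btg2, -0.74, adjusted p = 0.0135, on probe set 1416250_at). On 1448272_at the Ctm knockout mean was 4.65 against 4.68 and 4.45 in the 118Q and 11Q wild types. Of all 18193 genes, 1579 were called in the 118Q line and 1769 in the Ctm line against these controls. The main fit called 280 and 169. For 118Q minus Ctm 1 gene, Ier2, was called without the dimmer 50% (adjusted p = 0.0317), with trend and robust settings and with array weights. Calls over all genes were 1061 of the 9097 left without the dimmer 50%, 684 with trend and robust settings and 1893 with array weights. The wild-type comparison called 2 genes, Arc and Btg2, with the last 2 of these settings, and 0 without Ctm wild-type replicates 2 and 3, a fit that leaves 1 array in that group and assumes that it varies like the others. With the mean of probe sets Btg2 was not called there (adjusted p = 0.475). For the wild-type comparison, here and below, calls over all genes were counted in the main fit only (9.78%).

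With each array left out in turn, 0 to 1 of the 10 genes was called in the 118Q line (Junb without wild-type replicate 2) and for 118Q minus Ctm (Ier2 without Ctm wild-type replicate 1), and 0 to 2 in the wild-type comparison. Over all genes 240 were called in the 118Q line without wild-type replicate 2. For 118Q minus Ctm 715 were called without Ctm wild-type replicate 1. Changes whose direction turned ranged as follows. In the 118Q line Egr1 was -0.22 to 0.35 and Arc -0.10 to 0.083. In the Ctm line Fos was -0.82 to 0.73, Fosb -0.17 to 0.17, Nr4a1 -0.31 to 0.62, Dusp1 -0.83 to 0.42 and Btg2 -0.30 to 0.010. In the 11Q line Fos was -0.82 to 0.23, Egr1 -0.27 to 0.072, Npas4 -0.54 to 0.30, Arc -0.13 to 0.30, Dusp1 -0.47 to 0.30, Ier2 -0.0042 to 0.17 and Btg2 -0.23 to 0.22. For 118Q minus Ctm Fos was -0.053 to 1.501 and Egr1 -0.055 to 0.52. For 118Q minus 11Q Junb was -0.22 to 0.215, Egr1 -0.13 to 0.44 and Arc -0.32 to 0.11. For Ctm minus 11Q Fos was -0.56 to 0.99, Egr1 -0.24 to 0.11, Npas4 -0.83 to 0.087, Nr4a1 -0.092 to 0.83, Dusp1 -0.86 to 0.38 and Btg2 -0.36 to 0.086.

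With the replicate number as a block, 0 of the 10 genes were called in any line or difference, and 2 in the wild-type comparison (Btg2, adjusted p = 0.0453). Over all genes the block moved the calls from 280 to 225 in the 118Q line and from 169 to 157 in the Ctm line. For 118Q minus Ctm it moved them from 533 to 433. Calls over all genes in the wild-type comparison were counted without the block only (9.78%).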
